A study of Homo sapiens with 4 samples.

Results

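The aryl hydrocarbon receptor (AHR) and the genes around it were followed in Huh7 cells and in cells labelled HepG2, each treated and untreated. The 8 genes were chosen by name: AHR, its partner ARNT, its repressor AHRR, TIPARP, CYP1A1, CYP1A2, CYP1B1 and ALDH3A1. They take 9 of the 19739 entries of the coding table, because AHRR is listed under 2 identifiers. AHR is a ligand-activated transcription factor of the bHLH-PAS family. It waits in the cytosol with the chaperone HSP90, moves to the nucleus when it binds an aromatic ligand, pairs with ARNT and switches on genes of xenobiotic metabolism. In liver cells the best-known of these targets is CYP1A1, and AHRR and TIPARP are targets that in turn damp the receptor.

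The 4 groups were Huh7 treated, Huh7 untreated, HepG2-labelled treated and HepG2-labelled untreated. Treatment lasted 24 h and joined low-frequency ultrasound with an agent labelled RSL3@O2-ICG NBS. Untreated cells are labelled as having no treatment. RSL3 is an inhibitor of GPX4 used to induce ferroptosis, an iron-dependent cell death by lipid peroxidation. All cells were grown in DMEM with fetal bovine serum and antibiotics. Both lines are labelled as human hepatocellular carcinoma lines. Each group was 1 library, so no value has a replicate or an SD, and no level within a line can be set against a spread between cultures. Ultrasound, carrier or RSL3 given alone was not analysed here.

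The libraries held about 22900000 to 26400000 fragments, inferred from the smallest steps in the values. All 12 hepatocyte markers examined, ALB and HNF4A among them, were under 1 FPKM (fragments scaled by transcript length and library total) in both libraries labelled HepG2. There 7 of the 12 were listed at 0 in the treated library and 9 in the untreated one, ALB in both. The summed level of the 12 was 1437.3 and 1864.9 FPKM in treated and untreated Huh7, against 0.435 and 0.528 FPKM in the treated and untreated libraries labelled HepG2. HepG2 is known as a line that makes albumin, so the label is used here only as a name. The 5 epithelial markers summed to 2352.5 and 4657.8 FPKM in treated and untreated Huh7, and to 1094.9 and 1164.6 FPKM in treated and untreated cells of the HepG2 label. KRT8 and KRT18, keratins of simple epithelium, were read in all 4 libraries, and KRT8 had a log2 ratio of treated over untreated of −1.26 in Huh7. The adhesion protein CDH1 and the keratin KRT19 were under 1 FPKM in both libraries labelled HepG2, and EPCAM stood there at 1.37 FPKM treated and 0.908 FPKM untreated. The 7 fibroblast markers summed to 10.9 and 38.7 FPKM in treated and untreated Huh7, with LUM at 8.05 and 31.7 FPKM, and to 4.27 and 7.65 FPKM in treated and untreated cells of the HepG2 label. The 6 blood cell markers summed to 5.14 and 15.7 FPKM in treated and untreated Huh7, with CD14 at 2.21 and 15.1 FPKM. Under the HepG2 label they summed to 21.6 FPKM treated and 1.59 FPKM untreated, with CD68 at 20.7 and 1.38 FPKM, while CD68 in Huh7 stood at 2.83 FPKM treated and 0.521 FPKM untreated. PTPRC and CD3E, which define white blood cells and T cells, were at 0 in all 4. The 6 endothelial markers summed to at most 1.16 FPKM, in the treated library labelled HepG2, where TIE1 stood at 1.06 FPKM, and KDR was at 0 in all 4. The part of these markers in the results below was not tested.

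The AHR-ARNT pair is known to bind a short DNA element with the core GCGTG. The promoters of CYP1A1, which was higher after treatment in both lines, of its neighbour CYP1A2, which was hardly read, and of the feedback genes AHRR and TIPARP are shown with each match to GCGTG on either strand in capitals. They are 5′ to 3′ along the gene, from 250 bases before to 50 bases after the RefSeq start (GRCh38.p14).

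CYP1A1 promoter, chr15:74725479-74725778, minus strand: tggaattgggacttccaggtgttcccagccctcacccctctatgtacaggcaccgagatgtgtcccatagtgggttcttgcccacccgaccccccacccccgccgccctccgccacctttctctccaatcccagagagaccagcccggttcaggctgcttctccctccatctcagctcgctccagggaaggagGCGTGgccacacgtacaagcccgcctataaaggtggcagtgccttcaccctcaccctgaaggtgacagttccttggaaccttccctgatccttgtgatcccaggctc

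CYP1A2 promoter, chr15:74748595-74748894, plus strand: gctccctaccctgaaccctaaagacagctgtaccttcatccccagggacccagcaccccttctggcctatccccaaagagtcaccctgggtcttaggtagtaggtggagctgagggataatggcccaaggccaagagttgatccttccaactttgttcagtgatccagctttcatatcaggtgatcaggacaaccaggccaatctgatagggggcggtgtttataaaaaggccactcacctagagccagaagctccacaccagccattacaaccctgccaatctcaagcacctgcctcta

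AHRR promoter, chr5:321464-321763, plus strand: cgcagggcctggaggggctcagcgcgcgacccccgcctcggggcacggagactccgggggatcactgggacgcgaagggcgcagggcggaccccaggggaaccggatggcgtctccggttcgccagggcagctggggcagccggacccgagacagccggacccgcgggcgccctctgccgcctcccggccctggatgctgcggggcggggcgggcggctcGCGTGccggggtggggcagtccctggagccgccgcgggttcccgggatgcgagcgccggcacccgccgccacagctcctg

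TIPARP promoter, chr3:156674340-156674639, plus strand: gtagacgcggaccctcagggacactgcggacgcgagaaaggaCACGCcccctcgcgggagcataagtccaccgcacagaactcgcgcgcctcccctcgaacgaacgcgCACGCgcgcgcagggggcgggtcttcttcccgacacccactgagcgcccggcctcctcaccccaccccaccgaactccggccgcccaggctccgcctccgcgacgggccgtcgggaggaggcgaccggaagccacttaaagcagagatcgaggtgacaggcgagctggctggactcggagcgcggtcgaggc

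The window of CYP1A1 holds 1 match, which begins 57 bases before the start site, and that of CYP1A2 holds none. Sites farther than 250 bases before or 50 bases after a start site were not searched. The part of the matches in the levels of these genes was not tested. The AHRR window printed holds 1 match, which begins 30 bases before its start site, and that of TIPARP holds 2, both on the opposite strand, in a window whose start site lies 1355 bases from the listed start of the gene. Of all 35116 windows of the same length in the RefSeq table, 36.5% hold at least 1 match and 12.7% hold 2 or more. The longer form TNGCGTG is in 5.5% of all windows and, of these 4, was found in that of AHRR. RefSeq windows were found for 6 of the 8 genes, 9 windows in all, and the window nearest the listed start of a gene was taken. Not printed are those of AHR (1 match) and ARNT (no match), a second window of AHRR with 2 matches, 851 bases from its listed start, and 2 further windows of TIPARP with no match.

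CYP1A1, which oxidises polycyclic aromatic compounds, was higher after treatment in both lines. Its level was 48.8 FPKM in treated and 17.3 FPKM in untreated Huh7. In the libraries labelled HepG2 it was 5.05 FPKM treated and 1.89 FPKM untreated. Treated cells stood above untreated cells in each line, and both Huh7 libraries stood above both libraries labelled HepG2. The ratio of the FPKM themselves was 2.83 in Huh7 and 2.67 in the libraries labelled HepG2. After 1 is added to each FPKM, which shrinks ratios of weakly read genes, the log2 ratios were 1.45 and 1.07, or 2.73-fold and 2.09-fold. CYP1A1 (ENSG00000140465; chr15:74719542-74725536, GRCh38) shares no exonic bases with another gene of GENCODE 29. On its shortest coding transcript the reads amount to about 889 and 363 fragments in treated and untreated Huh7, and to 93 and 39 under the HepG2 label. The exact 95% interval of the ratio from these counts is 2.496 to 3.199 in Huh7 and 1.80 to 3.94 under the HepG2 label, for counting error only. In bulk RNA a change in the share of some cells and a change in RNA per cell cannot be told apart.

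Among 11945 coding genes with at least 1 FPKM in 1 of the 2 Huh7 libraries, the ratio of CYP1A1 ranked 89 from the top. In the libraries labelled HepG2 it ranked 669 of 11843. In Huh7, 2 of the 5 AHR entries that reached 1 FPKM were at least 2-fold higher, CYP1A1 and the longer AHRR entry, and none was lower, against 3.88% of all coding genes higher and 2.19% lower. After division by median-of-ratios size factors, which lowers the Huh7 median of all genes by 0.10 on the log2 scale, the numbers of all genes higher and lower turn from 464 and 261 to 336 and 340, and the CYP1A1 ratio is 1.33. In the libraries labelled HepG2, 1 of the 8 entries that reached 1 FPKM was higher, CYP1A1, and none was lower, against 6.7% of all genes higher and 2.43% lower. The median log2 ratio over those entries was 0.51 in Huh7 and −0.06 under the HepG2 label, beside 0.10 and 0.09 over all genes.

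**Figure D1:**
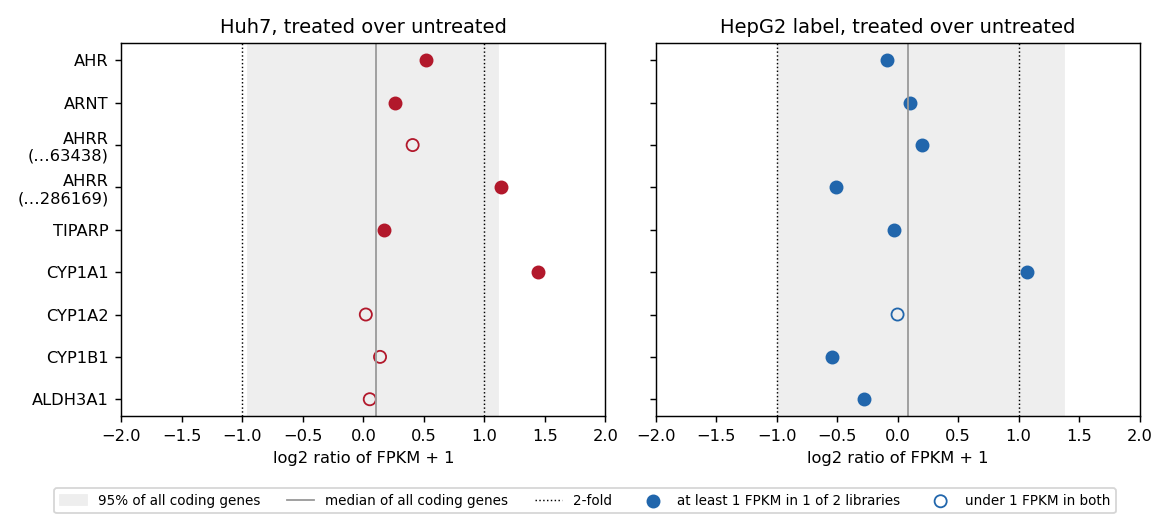
Treated over untreated for each entry, as the log2 ratio of FPKM + 1, in Huh7 (left) and under the HepG2 label (right). Grey bands hold 95% of all coding genes, dotted lines mark 2-fold, and open circles are entries under 1 FPKM in both libraries of the line; CYP1A1 lies beyond 2-fold in both panels, at 1.45 and 1.07.

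The only fit across libraries was limma on log2(FPKM + 1) with cell line as a block, which asks whether both lines moved alike and not whether repeat cultures would. Its treatment term for CYP1A1 was 1.26 ± 0.26 (SE), higher in 2 of 2 lines, with an adjusted p of 0.212 (Benjamini-Hochberg over 13030 genes), short of 0.05. For the other 7 entries fitted, the treatment term lay between −0.20 for CYP1B1 and 0.31 for the longer AHRR entry, with adjusted p of 0.682 or more. By limma 0 of 13030 genes (0.0%) passed for treatment, while 1534 had an unadjusted p under 0.05. The fit has 1 residual degree of freedom.

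CYP1A2, which in liver oxidises caffeine and aromatic amines and lies beside CYP1A1 on chromosome 15, was not read above the floor in any library. It was listed at 0.014 FPKM in treated and at 0 in untreated Huh7, and at 0 in both libraries labelled HepG2. On its single annotated transcript of 2728 bases the value in treated Huh7 is about 1 fragment. A response of CYP1A2 was not detectable at this depth.

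CYP1B1, the third CYP1 enzyme, which is known to hydroxylate oestradiol, separated the lines. Its level was 0.357 FPKM in treated and 0.234 FPKM in untreated Huh7. The libraries labelled HepG2 had 11.8 FPKM treated and 17.6 FPKM untreated. The Huh7 values rest on 5 and 4 fragments by the shortest coding transcript, or 43 and 32 by the longest. The log2 ratio of treated over untreated was −0.54 under the HepG2 label, short of 2-fold, and the counting interval of the ratio was 0.544 to 0.819. In Huh7, under 1 FPKM in both libraries, it was 0.14. CYP1B1 (ENSG00000138061; chr2:38066973-38123881) shares 11.3% of its exonic bases with the antisense gene CYP1B1-AS1, and the sources used here do not say whether counting kept the strand.

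ALDH3A1, an aldehyde dehydrogenase that in rodents is a classic gene of the receptor's battery, was likewise lower in Huh7. Its level was 0.347 FPKM in treated and 0.299 FPKM in untreated Huh7. The libraries labelled HepG2 had 9.92 FPKM treated and 12.2 FPKM untreated. The Huh7 values rest on 3 fragments each by the shortest coding transcript. The log2 ratios of treated over untreated were 0.05 in Huh7 and −0.28 under the HepG2 label. So in each line the CYP1 gene that was higher after treatment was CYP1A1, while CYP1B1 and ALDH3A1 stood within 2-fold where they were read.

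**Figure D2:**
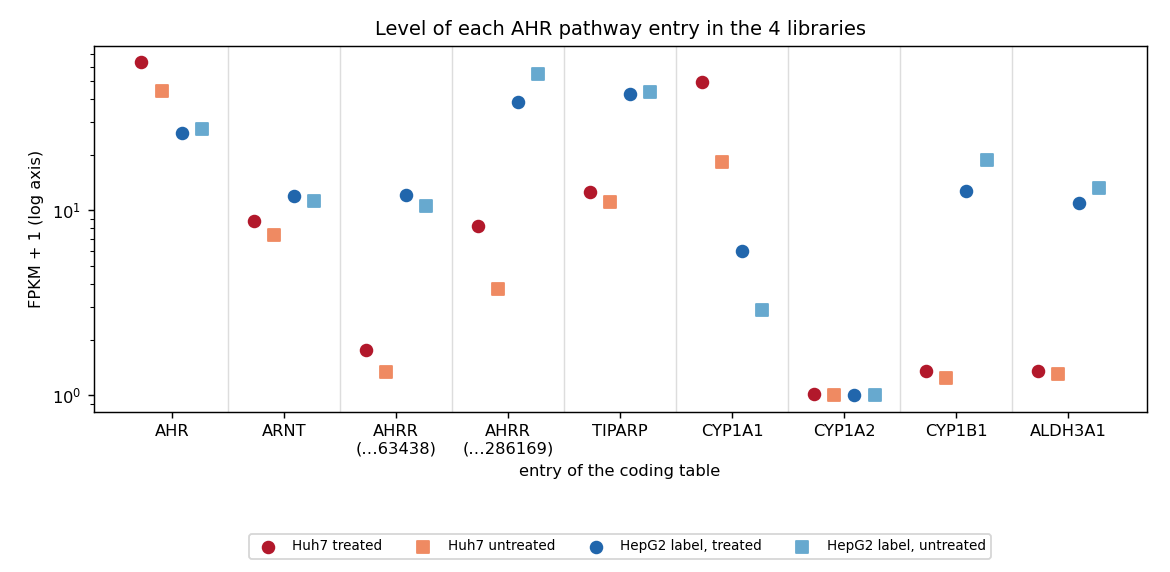
Level of the 9 entries in each library, as FPKM + 1 on a log axis; circles are treated and squares untreated, red Huh7 and blue the HepG2 label. CYP1A1 and AHR are higher in Huh7, CYP1B1, ALDH3A1, TIPARP and both AHRR entries are higher under the HepG2 label, and CYP1A2 sits at the floor.

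The receptor itself was among the better read of the 9 entries. AHR stood at 62.2 FPKM in treated and 43.3 FPKM in untreated Huh7, where it ranked 913 and 1440 of all 19739 coding entries by level. Under the HepG2 label it stood at 25.1 FPKM treated and 26.7 FPKM untreated. The log2 ratio of treated over untreated was 0.51 in Huh7 and −0.09 under the HepG2 label, both short of 2-fold. The counting intervals of the ratio were 1.39 to 1.48 and 0.899 to 0.982. AHR (ENSG00000106546) is listed at chr7:16902473-17346152, and its RefSeq start site lies 396179 bases inside that span. In GENCODE 29, 29.4% of its exonic bases are shared with the coding gene ENSG00000283321, which was listed at 0 in all 4 libraries.

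ARNT, the partner that AHR shares with the hypoxia-inducible factors, stood close to untreated cells in both lines. Its level was 7.78 FPKM in treated and 6.35 FPKM in untreated Huh7, and 11.0 FPKM treated and 10.2 FPKM untreated under the HepG2 label. The log2 ratios were 0.26 and 0.10. ARNT2, its close relative of the nervous system, was at most 0.24 FPKM, in treated Huh7, so ARNT was the form that was read.

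TIPARP, also called PARP7, an ADP-ribosyltransferase that modifies AHR and limits its activity, was within 2-fold of untreated cells in both lines. It stood at 11.5 FPKM in treated and 10.2 FPKM in untreated Huh7. In the libraries labelled HepG2 it stood at 41.9 FPKM treated and 42.7 FPKM untreated. The log2 ratios were 0.17 and −0.03, and the second changes sign, to 0.02, when libraries are rescaled to the same sum.

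AHRR, which competes with AHR for ARNT, is listed under 2 identifiers whose values differ. The entry ENSG00000063438 covers the gene itself (chr5:321759-435110). The entry ENSG00000286169 (chr5:271670-438291) begins 49 bases inside the start of the neighbouring gene PDCD6, runs over the rest of it and on past the listed end of AHRR. RefSeq places there a readthrough transcript named PDCD6-AHRR, which it classes as noncoding. PDCD6 encodes a calcium-binding protein of vesicle traffic and cell death.

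The AHRR entry of the gene itself stood at 0.767 FPKM in treated and 0.332 FPKM in untreated Huh7, and at 11.1 FPKM treated and 9.52 FPKM untreated under the HepG2 label. The longer entry stood at 7.24 and 2.75 FPKM in treated and untreated Huh7, and at 37.4 and 53.7 FPKM in treated and untreated cells of the HepG2 label. In each library the longer entry was thus above the gene's own entry. PDCD6 stood at 25.8 and 22.2 FPKM in treated and untreated Huh7, and at 95.3 and 121 FPKM in treated and untreated cells of the HepG2 label. All 3 entries were lower in Huh7.

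The longer AHRR entry had a log2 ratio of 1.14 in Huh7, past 2-fold, and of −0.51 under the HepG2 label. Over PDCD6 the log2 ratios were 0.21 and −0.34. For the gene's own entry they were 0.41 and 0.20. In Huh7 the gene's own entry was under 1 FPKM in both libraries. The ratio of its FPKM was 2.31, with a counting interval of 0.618 to 10.5 on the shortest coding transcript. The fragments behind it were 8 in treated and 4 in untreated Huh7 on that transcript, or 99 and 50 on the longest. Without the longer entry, the count of entries at least 2-fold higher in Huh7 is 1 and no longer 2. How the authors' counting divided reads between PDCD6 and the 2 AHRR entries was not tested.

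**Figure D3:**
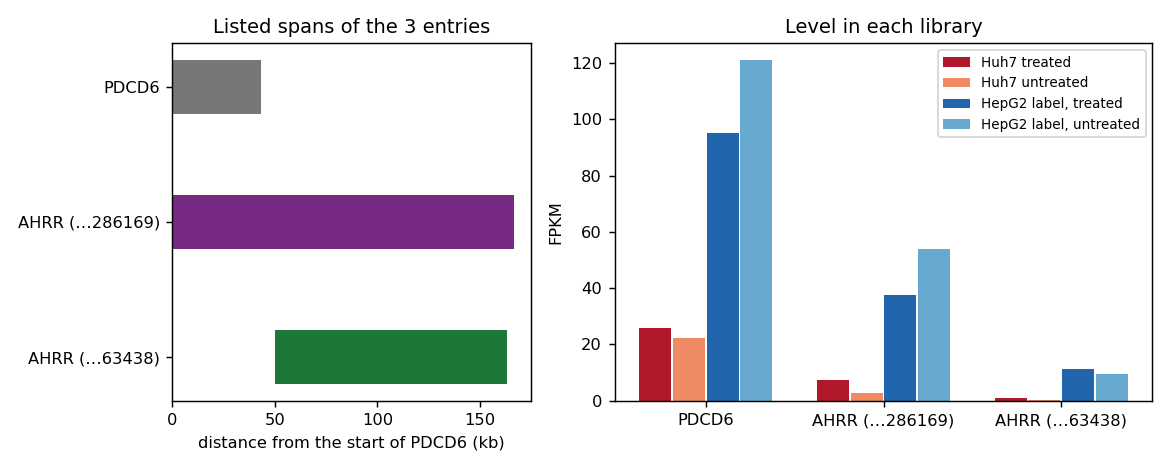
Listed spans of PDCD6 and the 2 AHRR entries as distance from the start of PDCD6 (left, kb) and their FPKM in each library (right). The longer AHRR entry covers all but the first 49 bases of PDCD6, and in each library its level lies between those of PDCD6 and the gene's own entry.

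Between the lines, the fitted difference was larger in size than the treatment term for all 8 entries fitted. By limma's cell line term, 2 of the 8 fitted entries were higher in Huh7 (AHR and CYP1A1), beside 18.6% of all genes, and 5 were lower (both AHRR entries, TIPARP, CYP1B1 and ALDH3A1), beside 19.1% (either direction, 7 of 8 beside 37.6%). This fit asks whether the difference between the lines was alike in both treatment states. CYP1A1 was higher in Huh7 by 2.85 ± 0.26 on the log2 scale (SE; adjusted p = 0.000181) and AHR by 0.98 ± 0.24 (adjusted p = 0.0165). CYP1B1 was lower in Huh7, at −3.58 ± 0.30 (adjusted p = 0.000131), as were ALDH3A1 at −3.18 ± 0.28 (adjusted p = 0.000175) and TIPARP at −1.87 ± 0.23 (adjusted p = 0.000759). The AHRR entries were lower, at −2.88 ± 0.28 for the gene itself (adjusted p = 0.000253) and −3.05 ± 0.38 for the longer one (adjusted p = 0.000826). ARNT did not pass, at −0.53 ± 0.25 (adjusted p = 0.134).

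By size alone, 1 of the 8 entries that reached 1 FPKM was at least 2-fold higher in untreated Huh7 than in untreated cells of the HepG2 label (17.5% of all genes), and 5 were lower (17.2%). In treated cells 2 were higher (15.8% of all genes) and 5 lower (16.6%), the added one being AHR. Rescaling libraries to the same sum lowers the median of all genes between treated lines by 0.13 on the log2 scale. Untreated Huh7 thus had 1.62 times the AHR FPKM and 9.13 times the CYP1A1 FPKM of the untreated library labelled HepG2, but 0.238 times the TIPARP FPKM. The libraries of the HepG2 label also differ from Huh7 in the hepatocyte markers given above, and the part of that difference was not tested.

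The genes whose pattern over the 4 libraries was nearest to that of CYP1A1 were sought by distance, the Euclidean distance between log2(FPKM + 1) values centred on each gene's mean. Among 13030 genes these were NT5DC4 (0.20), MAPK8IP2 (0.30), TRAPPC6A (0.35), FTL (0.39) and FLNC (0.41). FTL, the ferritin light chain that stores iron, stood at 18301.6 FPKM in treated and 5785.7 FPKM in untreated Huh7, and at 2514.1 FPKM treated and 842.4 FPKM untreated under the HepG2 label. Nearest to AHR were UGT1A10 (0.05; it shares exons with other UGT1A genes), ZNF135 (0.06), IFIH1 (0.07), MKRN3 (0.08) and AC253572.1 (0.08). UGT1A10, ZNF135 and AC253572.1 were at most 1.35 FPKM in any library, far below AHR. ZNF135 and AC253572.1 were at 0 in both libraries labelled HepG2. Of the genes nearest to CYP1A1, NT5DC4 and FLNC were under 1 FPKM in both libraries labelled HepG2. At such levels the added 1 shrinks the ratios that enter the distance. With 4 libraries such a distance is a description only.

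Of the proteins that hold the receptor in the cytosol, HSP90AB1, the constitutive HSP90, had log2 ratios of −0.20 in Huh7 and −0.64 under the HepG2 label. HSP90AA1, the stress-induced HSP90, was in Huh7 the 1 of 7 genes of this list past 2-fold (3.88% of all genes higher and 2.19% lower). It stood at 214 FPKM in treated and 101 FPKM in untreated Huh7, a log2 ratio of 1.07. With size factors it is 0.95 and 0 of the 7 are past 2-fold. Its log2 ratio under the HepG2 label was −0.20, and 0 of the 7 were past 2-fold (6.7% of all genes higher and 2.43% lower). The kinase SRC had log2 ratios of 0.50 in Huh7 and 0.76 under the HepG2 label, and the nuclear exporter XPO1 had 0.45 in Huh7 and −0.82 under the HepG2 label.

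Other bHLH-PAS proteins and coactivators were within 2-fold after 1 is added to each FPKM, and NPAS1 under the HepG2 label was not with the smaller pseudocount of 0.1. Of 13 relatives, 7 reached 1 FPKM in Huh7 and 8 under the HepG2 label, and 0 were past 2-fold in either. Of all genes, 3.88% were higher and 2.19% lower in Huh7, and 6.7% and 2.43% under the HepG2 label. HIF1A, the hypoxia factor that also pairs with ARNT, had log2 ratios of −0.26 in Huh7 and −0.49 under the HepG2 label. EPAS1, its relative HIF-2 alpha, had −0.35 and 0.52. NPAS1, a neuronal member, stood at 4.13 FPKM treated and 1.69 FPKM untreated under the HepG2 label, with a log2 ratio of 0.93 that is 1.24 with the pseudocount of 0.1. Its log2 ratio in Huh7 was 0.57. The clock protein ARNTL had −0.27 in Huh7 and 0.45 under the HepG2 label. Of 11 coactivators and turnover factors, 0 were past 2-fold in either line. The coactivators NCOA1 and NCOA3 had log2 ratios of 0.61 and 0.28 in Huh7, and of 0.40 and 0.69 under the HepG2 label. The ubiquitin ligase scaffold CUL4B had 0.02 in Huh7 and −0.73 under the HepG2 label, and the chromatin remodeller SMARCA4 had −0.19 in Huh7 and −0.50 under the HepG2 label.

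Among 13 other genes that have been reported as receptor targets, 2 of the 9 read in Huh7 were past 2-fold upward (3.88% of all genes) and none downward (2.19%). The 2 were ABCG2, a drug efflux pump, at 4.58 FPKM in treated and 1.71 FPKM in untreated cells, and UGT1A6, a glucuronosyltransferase, at 1.94 and 0.429 FPKM in treated and untreated cells. With size factors 0 of the 9 are past 2-fold, and the log2 ratios are 0.96 for ABCG2 and 0.996 for UGT1A6. UGT1A6 shares exons with the other UGT1A genes, so its own level is uncertain. The growth factor EREG had a log2 ratio of 0.92 and NQO1, a quinone reductase driven by both AHR and NRF2, 0.50. Of 8 read under the HepG2 label 0 were higher (6.7% of all genes) and 1 was lower (2.43%). That was VAV3, a guanine nucleotide exchange factor, at 0.183 FPKM treated and 2.65 FPKM untreated. Under the HepG2 label NQO1 stood at 119 FPKM treated and 113 FPKM untreated. The median log2 ratio of the list was 0.45 in Huh7 and 0.06 under the HepG2 label, beside 0.10 and 0.09 over all genes.

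NRF2, the antioxidant factor, shares targets with the receptor, and its list is given beside it. Of 15 NRF2 targets, all read in Huh7, 9 were past 2-fold upward and none downward, with a median log2 ratio of 1.04. Of all genes in Huh7, 3.88% were higher and 2.19% lower, with a median of 0.10. With size factors 6 of the 15 NRF2 targets are past 2-fold upward, with a median of 0.93. AKR1B10 (2.34), AKR1C1 (1.80, uncertain because of near-identical copies), OSGIN1 (1.56) and HMOX1 (1.36) led. In the libraries labelled HepG2, HMOX1 and the efflux pump ABCC3, 2 of 13, were past 2-fold upward and none downward, with a median of 0.16. Of all genes there, 6.7% were higher and 2.43% lower, with a median of 0.09. HMOX1, which breaks down haem, stood at 55.6 FPKM in treated and 21.0 FPKM in untreated Huh7, and at 81.0 FPKM treated and 22.7 FPKM untreated under the HepG2 label. ABCC3 had log2 ratios of 1.16 in Huh7 and 1.44 under the HepG2 label. CYP1A1 and, of this list, HMOX1 and ABCC3 were thus at least 2-fold higher in each line. The share of all genes that were so in both lines was not counted. NQO1 stands in this list and in that of receptor targets. The part of the NRF2 genes in the level of CYP1A1 was not tested.

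Genes that supply the CYP1 enzymes were mixed. Of 13 genes for P450 electron donors and haem, 1 was higher (3.88% of all genes) and 1 lower (2.19%) in Huh7, HMOX1 and CYB5A. CYB5A, cytochrome b5, stood at 4.54 FPKM in treated and 11.2 FPKM in untreated Huh7, and had a log2 ratio of −0.74 under the HepG2 label. Higher under the HepG2 label were 2 (6.7% of all genes), HMOX1 and CYB5B, the outer mitochondrial cytochrome b5, at 68.7 FPKM treated and 29.3 FPKM untreated. POR, the reductase that passes electrons to all microsomal P450s, stood at 76.3 FPKM treated and 40.1 FPKM untreated under the HepG2 label, and at 73.6 and 69.0 FPKM in treated and untreated Huh7.

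Enzymes that make or remove tryptophan-derived ligands were within 2-fold in both lines after 1 is added to each FPKM, but not with a pseudocount of 0.1, when KYNU is higher and ACMSD lower in Huh7. Of 15, 10 were read in Huh7 and 5 under the HepG2 label, and 0 were past 2-fold as deposited. Of all genes, 3.88% were higher and 2.19% lower in Huh7, and 6.7% and 2.43% under the HepG2 label. IDO1 and TDO2, which start the kynurenine route, were under 0.3 FPKM in all 4 libraries. KYNU, kynureninase, stood at 1.40 FPKM in treated and 0.30 FPKM in untreated Huh7, a log2 ratio of 0.88 that is 1.91 with the pseudocount of 0.1. DDC, which makes serotonin and dopamine, had a log2 ratio of −0.90 in Huh7, which is −1.01 with size factors and then the 1 gene of the list past 2-fold. ACMSD, which steers the kynurenine route away from NAD, stood at 0.345 FPKM in treated and 1.25 FPKM in untreated Huh7, a log2 ratio of −0.74 that is −1.60 with the pseudocount of 0.1. QPRT, which makes the NAD precursor, had −0.02 in Huh7 and 0.64 under the HepG2 label.

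Of the 18 other aldehyde dehydrogenases, 14 were read in Huh7, where 0 were at least 2-fold higher (3.88% of all genes) and 1 was lower (2.19%). That was ALDH8A1, of retinal and kynurenine metabolism, at 0.794 FPKM treated and 4.45 FPKM untreated. Of 13 read under the HepG2 label 2 were higher (6.7% of all genes), ALDH1L2 of mitochondrial folate metabolism (log2 ratio 1.38) and ALDH2, which clears acetaldehyde (1.32). ALDH3B1, of the same family as ALDH3A1, had a log2 ratio of 0.99 in Huh7 (1.23 with the pseudocount of 0.1) and 0.27 under the HepG2 label. ALDH1A1, the cytosolic retinal dehydrogenase, stood at 384 FPKM in treated and 317 FPKM in untreated Huh7, and at 0.019 FPKM treated and 0 untreated under the HepG2 label.

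Targets of the hypoxia-inducible factors, which need ARNT as AHR does, lay on both sides. In Huh7, 1 of 13 was at least 2-fold higher, KDM3A, a histone demethylase named here after its value was seen (log2 ratio 1.15), and 2 were lower, the glucose transporter SLC2A1 (−1.31) and the lactate dehydrogenase LDHA (−1.03). Of 15 read under the HepG2 label 2 were higher, NDRG1 (1.32) and the vessel growth factor VEGFA (1.16, also named after its value was seen), and 2 lower, the carbonic anhydrase CA9 (−2.31) and LDHA (−1.46). Of all genes, 3.88% were higher and 2.19% lower in Huh7, and 6.7% and 2.43% under the HepG2 label. The median log2 ratio of the list was −0.25 in Huh7 and 0.20 under the HepG2 label, beside 0.10 and 0.09 over all genes.

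**Figure D4:**
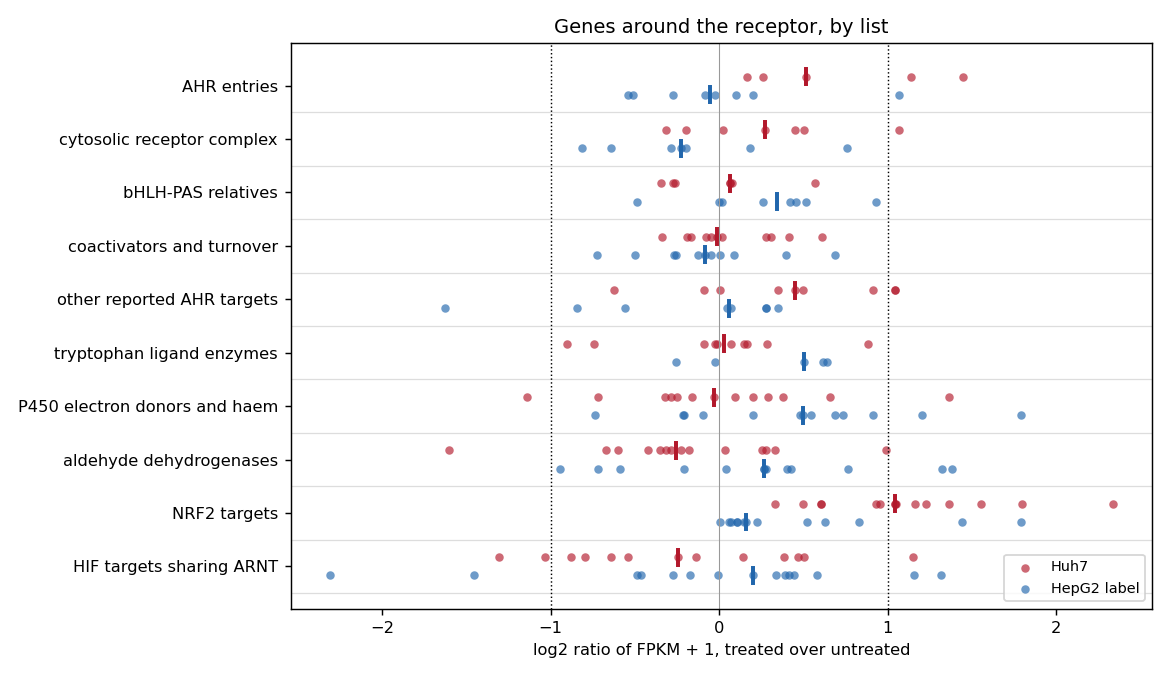
Treated over untreated for each gene of the lists, as the log2 ratio of FPKM + 1, among genes with at least 1 FPKM in 1 of the 2 libraries of the line; red is Huh7, blue the HepG2 label, bars are list medians and dotted lines mark 2-fold. The NRF2 list has the highest median in Huh7, 1.04, and the coactivators stay inside 2-fold in both lines.

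The authors' deposited tables of enriched terms list the members of this group unevenly. In the authors' deposited table of Gene Ontology terms for Huh7, CYP1A1 is in 251 of 11546 terms, 56 of them with a corrected p under 0.05. Among these, the authors' deposited table gives response to iron ion 12 of 33 genes and a corrected p of 0.0116. Lower corrected p in the authors' deposited table belong to response to vitamin (26 of 92 genes, 0.000713) and response to food (13 of 38 genes, 0.0062). The authors' deposited KEGG table for Huh7 lists CYP1A1 in 7 of 271 pathways, of which 1 has a corrected p under 0.05, steroid hormone biosynthesis (26 of 57 genes, corrected p = 0.00175). The share of all terms or all pathways with a corrected p under 0.05 was not counted. Metabolism of xenobiotics by cytochrome P450 (21 of 74 genes) has a corrected p of 0.234 in the authors' deposited table, and tryptophan metabolism (10 of 40 genes) one of 0.845. The authors' deposited tables for the HepG2 label list 0 of the 9 entries in any of 12517 Gene Ontology terms or 275 pathways, CYP1A1 included. There metabolism of xenobiotics by cytochrome P450 holds 10 of 74 genes, with a corrected p of 1.0 in the authors' deposited table.

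Long noncoding transcripts beside these genes were mostly under 1 FPKM. The share of all long noncoding transcripts at such levels was not counted. Of 52 listed within 5000 bases of an entry or named after it, 19 had a value above 0 in any library and 2 reached 1 FPKM. None of the 37 beside CYP1B1 reached 1 FPKM, and most of these are transcripts of 1 gene, CYP1B1-AS1. A transcript of EXOC3-AS1, past the end of the longer AHRR entry, stood at 2.67 FPKM in treated and 1.85 FPKM in untreated Huh7, and at 4.28 FPKM treated and 3.93 FPKM untreated under the HepG2 label. A transcript of AC073332.1, which lies inside the listed span of AHR and runs over its RefSeq start site, stood at 1.82 FPKM in treated and 1.71 FPKM in untreated Huh7, and at 0.873 FPKM treated and 0.538 FPKM untreated under the HepG2 label.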

How the data were processed

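RNA sequencing was done on 4 libraries, 1 per group. Per the labels' protocols, Trizol was used for RNA and an Illumina TruSeq RNA kit for libraries. The authors deposited FPKM per coding gene and per long noncoding transcript, and p-values of their enrichment tables, per the file headers. Per the submitters' processing notes, the tools were GATK, SAMtools 0.1.18, HISAT2, Picard 1.96, Cuffdiff 2.1.1, Bowtie2 2.2.8 and StringTie 1.3.1, with no roles stated. The genome build is, in these sources, not given. Of 19664 coding entries with an identifier in GENCODE 29, 99.84% overlap that gene in GRCh38, so positions are given as GRCh38.

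Count models were not used on FPKM. Library depth was estimated from the step of FPKM times transcript length in genes with 1 annotated transcript. Ratios are log2((FPKM + 1)/(FPKM + 1)). Genes with at least 1 FPKM in 1 of the 2 libraries compared were considered, and 2-fold was the rule of size. A trended limma fit (version 3.58.1, in R 4.3.3) took genes with at least 1 FPKM in any library, with treatment and cell line as terms. The labels give the cell line that pairs a treated with an untreated library. The fit was run on simulated data in which the effects of line and treatment add up. That run does not cover genes whose response differs between the lines. Alternatives were a pseudocount of 0.1, no minimum or 5 FPKM, 2 scalings, a 1.5-fold rule, no trend and no block.

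All 8 genes are described. Of the lists beside them, up to 4 genes with the largest ratio in either line are named, with HSP90AB1, ARNT2, HIF1A, NQO1 and HMOX1, and further genes named are there to complete a count or were chosen after their values were seen. The rule also names 1 gene that is not reported here. The members and lists were chosen with earlier results of these data known. Long noncoding transcripts within 5000 bases were taken.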

Additional observations from a re-analysis of the deposited data

Results flagged for a closer look

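The genes picked by distance were left out of this count. Among the rest of the genes named in the text that reached 1 FPKM in a library of each line, 3 of the AHR entries and 12 other genes stood above untreated cells in 1 line and below them in the other. Of the genes picked by distance, MKRN3 did so too. The share of all coding genes with opposite signs in the lines was not counted. With 1 library per group the difference between the lines was not tested. CYP1B1 and ALDH3A1 also had opposite signs, but were under 1 FPKM in Huh7. Huh7 minus HepG2 label, the log2 ratios of treated over untreated differ by 1.65 for the longer AHRR entry ENSG00000286169 (1.14 and −0.51), the entry that runs over PDCD6, and by 0.55 for PDCD6. They differ by 0.60 for AHR (0.51 and −0.09) and by 0.19 for TIPARP (0.17 and −0.03). The TIPARP ratio under the HepG2 label changed sign, to 0.02, when libraries were rescaled to the same sum. Of the other genes, HSP90AA1 (1.26), XPO1 (1.27) and CUL4B (0.74) were above untreated cells in Huh7 and below them under the HepG2 label. Below untreated cells in Huh7 and above them under the HepG2 label were ALDH2 (difference −1.67), NDRG1 (−1.56), VEGFA (−1.30), KRT18 (−1.21), EPAS1 (−0.86), ARNTL (−0.73), QPRT (−0.66) and EPCAM (−0.44).

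In the long noncoding table, which the comparisons do not use, 2 transcripts beside the entries were above the untreated library at 1 FPKM or more. The transcript of EXOC3-AS1 stood at 2.67 FPKM in treated against 1.85 FPKM in untreated Huh7, and at 4.28 FPKM treated against 3.93 FPKM untreated under the HepG2 label. That of AC073332.1 stood at 1.82 FPKM in treated against 1.71 FPKM in untreated Huh7. The log2 ratio for EXOC3-AS1 was 0.37 in Huh7 and 0.10 under the HepG2 label. For AC073332.1 in Huh7 it was 0.05, so all were short of 2-fold. The share of all long noncoding transcripts above the untreated library was not counted.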

How the results depend on the processing

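CYP1A1 stayed at least 2-fold higher in both lines under the pseudocount of 0.1 and both scalings, with log2 ratios of 1.33 to 1.49 in Huh7 and 1.02 to 1.37 under the HepG2 label. Its limma treatment term stayed above an adjusted p of 0.05 in all 7 settings (0.171 to 1.0, from 0.212 as reported). Of 522 values of single genes under the alternatives, 506 kept their side of the 2-fold or 0.05 threshold. Of these values 3 fell short of it, 13 passed it and none was reversed past it. Some small values changed sign on the same side of it, TIPARP under the HepG2 label among them. Of the 204 that concern the AHR entries, 1 changed side: the gene's own AHRR entry in Huh7 had a log2 ratio of 1.00 with the pseudocount of 0.1. Without the longer AHRR entry, chosen after seeing the data, 1 and not 2 entries were 2-fold higher in Huh7.

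Counts over all genes moved with the settings. With the pseudocount of 0.1, 970 genes were higher and 422 lower in Huh7, and 1331 were higher under the HepG2 label. At 1.5-fold 1841 genes were higher and 912 lower in Huh7, and 2277 and 1038 under the HepG2 label. At that rule 2 entries were higher and 6 lower in untreated Huh7 than under the HepG2 label, against 1 and 5 at 2-fold. The share of all genes between the lines at 1.5-fold was not counted. limma's treatment calls were 1 higher at a minimum of 5 FPKM, and 1 higher and 2 lower with size factors, against 0 and 0. Without the replicate block, that is without the other term, limma gave 0 and 0 calls for treatment and 1816 higher and 1790 lower for cell line. Leaving out a library was not run, as each group has 1. Depth limits CYP1A2, and in Huh7 CYP1B1, ALDH3A1 and the gene's own AHRR entry.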
